A study of Mus musculus with 16 samples.

Results

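The genes described here are 31 genes of cholesterol and fatty acid synthesis, read in mouse CD8 T cells that lack the transcription factor Batf3 and in wild-type cells. They were taken by name: every row of the count table whose gene symbol stood in a fixed list of 31 symbols, out of 55335 gene rows. All 31 were found and all 31 passed the filter on low counts. Of them, 18 encode enzymes of sterol synthesis, 4 encode regulators of the pathway, 4 act in cholesterol uptake, transfer or efflux, and 5 encode enzymes of fatty acid synthesis. The study has 16 libraries in 4 groups of 4: Batf3 ko at 72 h, wild type (wt) at 72 h, Batf3 ko at 48 h and wt at 48 h. All cells came from C57BL/6 spleen and were enriched for CD8 T cells. They were activated in medium with IL-15 at 50 ng/ml, a cytokine that sustains CD8 T cells. Antibodies at 1 µg/ml each triggered the T cell receptor (anti-CD3, coated on the plate) and the costimulatory receptor CD28 (anti-CD28). The ko is labelled Batf3-/- and named without a cell type restriction, the number of mice is not given in the sources used here, and the libraries of a group are called technical replicates, so p-values reflect the scatter of such libraries, not of animals.

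Cholesterol is built from acetyl-CoA through mevalonate, a chain of isoprenoids, squalene and lanosterol, and fatty acids are built from the same acetyl-CoA through malonyl-CoA. The factors encoded by Srebf1 and Srebf2 switch on both sets of enzymes. When sterols are plentiful these factors are held in the endoplasmic reticulum by the proteins of Scap and Insig1, and when sterols run low they are cut and enter the nucleus. A sterol surplus instead acts through nuclear receptors that switch on the exporters Abca1 and Abcg1 and the ubiquitin ligase Mylip, which lowers lipoprotein uptake. T cells that have been activated are known to raise both synthesis routes to make membrane for division.

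Library totals ran from 29375818 to 39241169 counts. Batf3 itself averaged 0.0916 CPM (counts scaled to library totals) in ko and 30.9 CPM in wt libraries at 72 h, and 0.129 CPM in ko and 80.7 CPM in wt libraries at 48 h, as the labels say. The 5 CD8 T cell markers summed to 1647 to 1688 CPM in ko and 1573 to 1611 CPM in wt libraries at 72 h. Of them Cd3g was higher in ko libraries at 72 h (log2 fold change 0.54, adjusted p = 4.85e-06) and at 48 h (0.31, adjusted p = 0.0125), while Cd8a did not pass at 72 h (log2 fold change -0.046, adjusted p = 0.531), and Cd4 stayed under 1 CPM in every library. The library ko 48 h replicate 4 and the library wt 72 h replicate 4 correlated least with the rest of their groups (0.990 for both, against 0.995 or more for the other 14), so counts of the 31 genes called are also given without them. Across 9191 expressed genes the ko-over-wt difference ran with exon length, with Spearman's rho of -0.35 at 72 h and -0.40 at 48 h (across genes, which are not replicates), so these counts are also set beside a fit whose offsets remove that trend.

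At 72 h, a subset of these genes had lower relative RNA levels in ko than in wt libraries. Of the 31 genes 13 were lower and 0 were higher in ko than in wt libraries (edgeR's quasi-likelihood test, Benjamini-Hochberg adjusted p below 0.05 over 15197 genes, used for every call below). That is 41.9% of the genes lower, where 36.4% of all tested genes were called, 19.5% lower and 16.9% higher. The lower genes were 7 of the 18 sterol synthesis enzymes, 0 of the 4 regulators, 1 of the 4 uptake, transfer and efflux genes, and 5 of the 5 fatty acid enzymes. Unadjusted p-values below 0.05 were reached by 19 of the 31 downward and by 0 upward, and DESeq2 and limma-voom each called 13 lower and 0 higher. The median log2 fold change of the 31 was -0.18, beside -0.015 for all tested genes. The log2 fold changes of the 13 ran from -0.20 for Msmo1 to -0.63 for Acaca, and none reached a 2-fold change. In bulk RNA, fewer cells of a type and less RNA per cell cannot be told apart.

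CPM values here are counts over library totals, while fold changes come from the fit with TMM scaling, whose factors averaged 0.951 in ko and 1.04 in wt libraries at 72 h. A ratio of CPM means at 72 h is therefore further below 1 than the fitted change. Gaps between ko and wt CPM values are shifted the same way. Mvk, Mvd, Fdft1, Hsd17b7, Sc5d, Srebf2 and Insig1 also had every ko library below every wt library in CPM at 72 h, yet did not pass the test. The share of all genes with such a gap was not counted. With library totals alone as the scale, the median of all tested genes was -0.14 on the log2 scale and 22 of the 31 genes were lower. Without the 2 libraries that correlated least with their groups 17 were lower, and with the exon length offsets 12 were lower, with 0 higher under each of these settings.

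**Figure D1:**
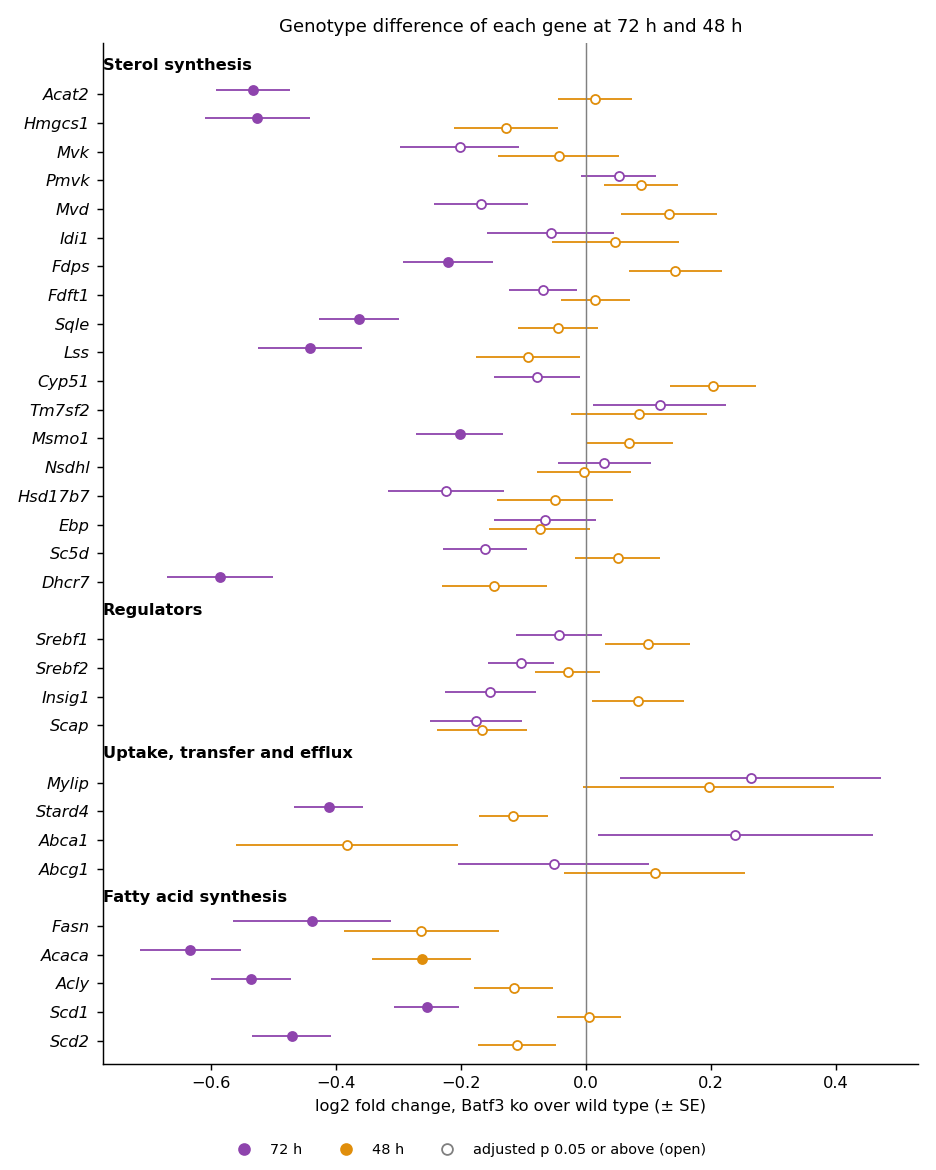
Log2 fold change of Batf3 ko over wild type (horizontal axis, with SE bars) for each of the 31 genes at 72 h and 48 h, grouped by role. Filled points passed an adjusted p of 0.05; the 13 filled points at 72 h all lie below 0, from the mevalonate enzymes Acat2 and Hmgcs1 to all 5 fatty acid enzymes, and at 48 h only Acaca is filled.

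The first steps of the sterol route were among the lower ones. Acat2 (ENSMUSG00000023832, chromosome 17, 12942890 to 12960747 in GRCm38), which joins acetyl-CoA units in the cytosol, had 61.6, 65.1, 61.9 and 68.7 CPM in the 4 ko libraries at 72 h, against 98.3, 96.1, 114 and 98.4 CPM in the wt libraries. Every ko library lay below every wt library, with a log2 fold change of -0.53, SE 0.060, adjusted p = 4.14e-07. Of the 50-base stretches of Acat2's exons 39.1% also occur in its neighbour Acat3, and the sources used here do not give how reads with several matches were handled, so the value may hold reads of both genes. Hmgcs1 (ENSMUSG00000093930, chromosome 13, 119690379 to 119708260), the HMG-CoA synthase of the next step, had 189.8, 176, 188 and 198 CPM in ko and 258, 263, 344 and 318 CPM in wt libraries. The groups did not overlap, and the wt libraries were the more scattered, replicates 3 and 4 standing above replicates 1 and 2 (log2 fold change -0.53, SE 0.083, adjusted p = 3.5e-05). An antisense gene covers 12.1% of the Hmgcs1 exon bases, and whether reads were counted by strand is not given in the sources used here.

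Of the following steps to the isoprenoids, Mvk, Pmvk, Mvd and Idi1 did not pass the test at 72 h. Their log2 fold changes were -0.20 for Mvk and 0.052 for Pmvk, the kinases of mevalonate and phosphomevalonate, -0.17 for Mvd, the decarboxylase, and -0.057 for Idi1, the isopentenyl diphosphate isomerase. Pmvk had the sign of a small rise here but -0.076 on the log2 scale with library totals as the scale. Fdps (ENSMUSG00000059743, chromosome 3, 89093588 to 89101959), the farnesyl diphosphate synthase, was lower. It had 26.1, 25.2, 24.4 and 26.7 CPM in ko and 30.96, 33.3, 35.2 and 30.9 CPM in wt libraries at 72 h, a log2 fold change of -0.22, SE 0.072, adjusted p = 0.0185. The groups were apart by a few CPM, and the call was lost without wt 72 h replicate 2 (adjusted p = 0.0523), wt 72 h replicate 3 (adjusted p = 0.0594) or ko 72 h replicate 3 (adjusted p = 0.0692) and with the exon length offsets (adjusted p = 0.0597). Fdps also shares 26.2% of its 50-base stretches with other rows of the table.

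From farnesyl diphosphate onward the pattern was mixed. Fdft1, which makes squalene, had a log2 fold change of -0.069 (adjusted p = 0.342). Sqle (ENSMUSG00000022351, chromosome 15, 59315077 to 59331192), the squalene epoxidase and a rate-limiting enzyme, had 93.1, 96.1, 95.5 and 97.5 CPM in ko libraries at 72 h, against 127, 127, 143 and 139 CPM in wt libraries. The ko libraries lay close together and below the lowest wt library (log2 fold change -0.36, SE 0.064, adjusted p = 0.000114). Lss (ENSMUSG00000033105, chromosome 10, 76531588 to 76557138), which folds the epoxide into lanosterol, had 60.6, 60.2, 53.6 and 67.7 CPM in ko and 91.3, 90.1, 102 and 76.6 CPM in wt libraries. Here wt 72 h replicate 4 was the lowest of its group and still above the highest ko library (log2 fold change -0.44, SE 0.083, adjusted p = 0.000218). Cyp51, the lanosterol demethylase, stood beside them with a log2 fold change of -0.078 (adjusted p = 0.401), from 277 to 309 CPM in ko libraries, against 308 to 372 CPM in wt libraries, ranges that overlap.

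Of the enzymes that turn lanosterol into cholesterol, Dhcr7 (ENSMUSG00000058454, chromosome 7, 143823145 to 143848410), a late reductase of the route, showed the second largest fall of the 31. It had 35.0, 34.3, 38.7 and 43.0 CPM in ko libraries at 72 h, against 61.5, 56.3, 71.8 and 58.3 CPM in wt libraries, with no overlap (log2 fold change -0.59, SE 0.084, adjusted p = 9.89e-06). Msmo1 (ENSMUSG00000031604, chromosome 8, 64718139 to 64733792), the methylsterol monooxygenase, had 127, 117, 123 and 126 CPM in ko and 141, 149.9, 165 and 164 CPM in wt libraries (log2 fold change -0.20, SE 0.069, adjusted p = 0.0246). The groups were apart, but the call for Msmo1 was lost when any 1 of 4 libraries was left out, with adjusted p of 0.0647 without wt 72 h replicate 3, 0.0772 without wt 72 h replicate 4, 0.0827 without ko 72 h replicate 2 and 0.0642 without ko 72 h replicate 3, and was 0.229 with the exon length offsets. Tm7sf2, Nsdhl, Hsd17b7, Ebp and Sc5d, which reduce, demethylate, isomerise or desaturate the ring intermediates, did not pass, with log2 fold changes of 0.12, 0.029, -0.22, -0.066 and -0.16 in that order. When 1 library was left out, Hsd17b7 and Mvd passed in 2 fits each and Sc5d in 3. Mvd also passed as lower with the exon length offsets (adjusted p = 0.0181). Without the 2 libraries that correlated least with their groups, Mvd and Mvk passed (adjusted p = 0.0275 and 0.0352). With library totals as the scale, Mvk, Mvd, Fdft1, Cyp51, Hsd17b7 and Sc5d were lower as well. Summed over the 18 enzymes, the level was 1529 ± 39.4 CPM in ko and 1943 ± 143 CPM in wt libraries at 72 h (SD, n = 4 each), a ratio of 0.787, or 0.860 on TMM-scaled library sizes.

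**Figure D2:**
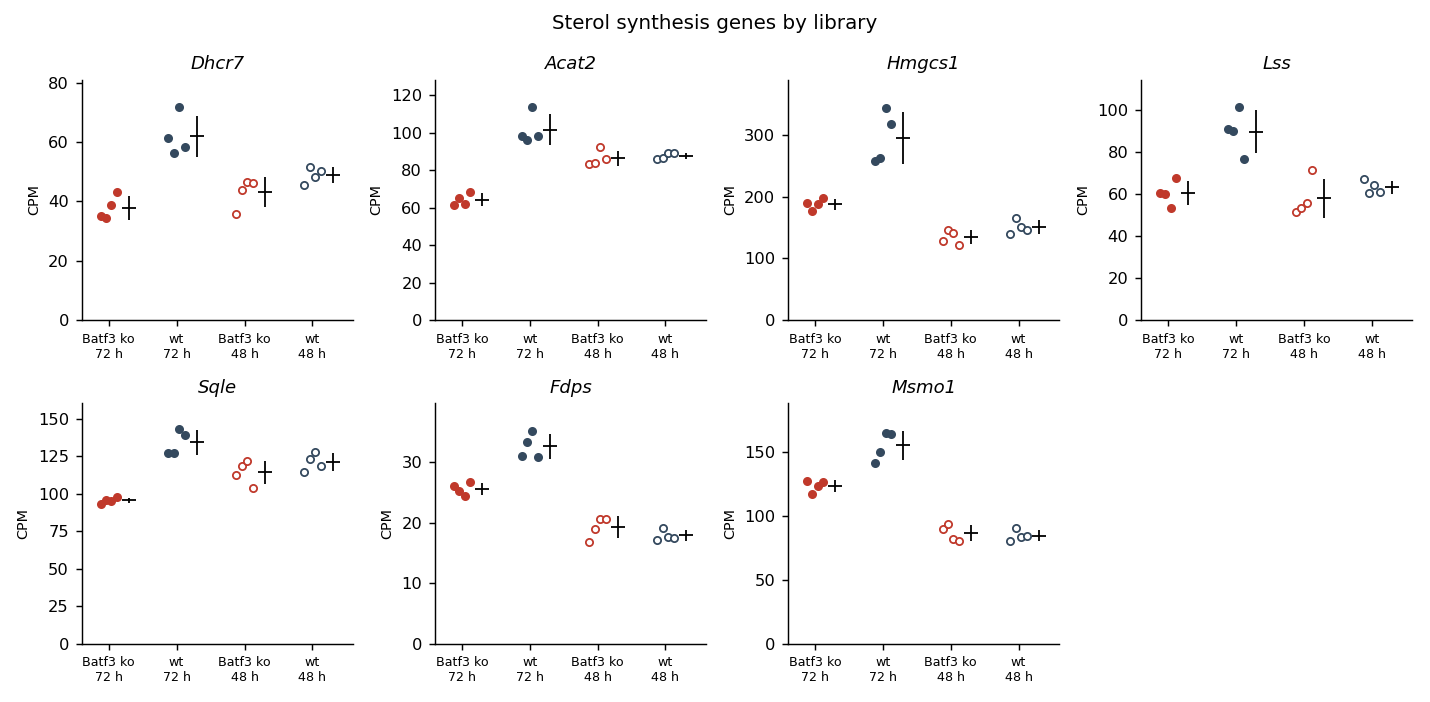
CPM of the 7 sterol synthesis enzymes that passed the test at 72 h (vertical axes from 0), 1 point per library, with mean and SD of each group of 4. In each panel the 4 ko points at 72 h lie below the 4 wt points at 72 h, while ko and wt points at 48 h overlap. On this scale the median log2 fold change of all tested genes at 72 h was -0.14.

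The start-site windows of these genes were read for known control letters, because the genes share regulators. RefSeq windows of 250 bases before to 50 after the start (GRCm38.p6) were given for 24 of the 31 genes, 30 windows in all, and the windows of Fdps, Fdft1, Sqle, Stard4, Abcg1, Scd1 and Scd2 were not used here. On either strand, the letters CCAAT occurred in 21 of the 30 windows (70.0%), beside 37.4% of all 32851 windows, and GGGCGG, a GC box, in 24 (80.0%), beside 35.7%. The sterol regulatory element as TCACNCCAC occurred in 1, that of Hmgcs1, beside 1.24% of all windows. CACGTG, an E-box, occurred in 7 windows (23.3%), beside 7.15%, and TGANTCA, the core bound by AP-1 factors such as Batf3 with its partners, in 2 (6.67%), those of Dhcr7 and Msmo1, beside 7.81%. No 2 different motifs shared a base within these 30 windows. All windows were taken, whether or not their gene was expressed in these cells. A gene with several windows, such as Srebf1 or Dhcr7, counted with each of them. A match is a description of letters, not a bound site. The windows below show a mevalonate enzyme with the sterol element, a later sterol enzyme and the fatty acid enzymes Acly and Fasn, all 4 lower at 72 h; capitals mark TCACNCCAC and CCAAT on either strand, and bases run 5′ to 3′ on the gene's strand.
Hmgcs1, chr13:119690101-119690400, plus strand: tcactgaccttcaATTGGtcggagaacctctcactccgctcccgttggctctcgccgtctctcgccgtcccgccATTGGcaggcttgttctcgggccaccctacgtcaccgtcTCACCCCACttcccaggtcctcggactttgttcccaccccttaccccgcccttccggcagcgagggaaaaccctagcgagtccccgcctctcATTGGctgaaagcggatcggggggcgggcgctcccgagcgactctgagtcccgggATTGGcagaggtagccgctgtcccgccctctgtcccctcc
Lss, chr10:76531355-76531654, plus strand: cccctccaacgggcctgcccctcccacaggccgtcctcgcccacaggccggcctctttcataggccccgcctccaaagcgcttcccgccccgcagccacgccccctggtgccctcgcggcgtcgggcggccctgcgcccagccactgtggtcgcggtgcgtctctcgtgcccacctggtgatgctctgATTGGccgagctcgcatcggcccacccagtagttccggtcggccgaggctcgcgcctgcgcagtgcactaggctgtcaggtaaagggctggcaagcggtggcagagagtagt
Acly, chr11:100527951-100528250, minus strand: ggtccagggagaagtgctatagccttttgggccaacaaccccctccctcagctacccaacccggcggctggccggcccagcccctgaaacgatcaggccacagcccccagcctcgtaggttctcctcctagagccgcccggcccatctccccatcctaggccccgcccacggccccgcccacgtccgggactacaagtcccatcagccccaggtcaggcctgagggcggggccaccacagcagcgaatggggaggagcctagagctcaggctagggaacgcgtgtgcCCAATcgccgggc
Fasn, chr11:120824498-120824797, minus strand: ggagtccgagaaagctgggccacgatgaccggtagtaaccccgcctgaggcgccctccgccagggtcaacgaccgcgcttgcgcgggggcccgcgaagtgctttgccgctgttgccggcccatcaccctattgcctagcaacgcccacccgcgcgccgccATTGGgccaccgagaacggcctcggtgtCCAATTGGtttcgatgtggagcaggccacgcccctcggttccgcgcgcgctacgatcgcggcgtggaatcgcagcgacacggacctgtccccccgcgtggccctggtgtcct
In the Hmgcs1 window the sterol element stands between 2 upstream and 2 downstream CCAAT matches, while the other 3 windows hold CCAAT and no match to that element. Of other genes lower at 72 h, Acat2 and Acaca held 0 CCAAT matches in their windows and Msmo1 held 3. The Acaca window (chromosome 11, 84195188 to 84195487) lies within the gene, whose annotated start is at 84129672, so it is not the window of the first start site. Of genes that did not pass, Mvk held 5, Nsdhl 4 and Scap 0. Whether these letters go with the fall was not tested.

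The 4 regulators did not pass the test at 72 h (0 lower and 0 higher in edgeR, DESeq2 and limma-voom, with unadjusted p below 0.05 for 2). Srebf2, the main activator of sterol genes, had 396, 402, 383 and 416 CPM in ko libraries at 72 h, against 499, 447, 504 and 427 CPM in wt libraries. The ko libraries lay below the wt libraries on this scale, but the fitted log2 fold change was -0.10, SE 0.052, adjusted p = 0.122, and it was 0.0042 with the exon length offsets. Srebf1, the activator of fatty acid genes, had 119, 126, 120.1 and 134 CPM in ko and 155, 136, 152 and 119 CPM in wt libraries, which overlapped (log2 fold change -0.043, SE 0.068, adjusted p = 0.661). The sterol-sensing retention gene Insig1 had 89.8, 85.7, 86.9 and 88.3 CPM in ko and 96.2, 101.4, 113 and 115 CPM in wt libraries, apart on this scale (log2 fold change -0.15, SE 0.073, adjusted p = 0.104). Scap, the escort of the Srebf proteins, had 44.6, 49.0, 40.3 and 48.3 CPM in ko and 61.3, 54.4, 62.4 and 47.2 CPM in wt libraries, with wt 72 h replicate 4 within the ko range (log2 fold change -0.18, SE 0.074, adjusted p = 0.063). Without that library the adjusted p of Scap was 0.00833, and that of Srebf2 0.0496. Scap also passed without ko 48 h replicate 4 (adjusted p = 0.0494) or ko 72 h replicate 2 (adjusted p = 0.0475), and Insig1 without wt 72 h replicate 1 (adjusted p = 0.0425). With library totals as the scale 3 of the 4, Srebf2, Insig1 and Scap, were lower. An antisense gene covers 13.2% of the Scap exon bases. Transcript levels do not measure how much of the Srebf factors was cut and nuclear.

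Among the genes of uptake, transfer and efflux, Stard4 (ENSMUSG00000024378), which carries cholesterol between membranes and is itself a sterol-regulated gene, was the one that passed. It had 142, 134, 145 and 137 CPM in ko libraries at 72 h, against 203, 199, 210.1 and 198 CPM in wt libraries, a wide gap next to the spread of either group (log2 fold change -0.41, SE 0.055, adjusted p = 4.58e-06). The exporters did not pass the test. Abcg1 had 11.6, 11.4, 9.36 and 10.2 CPM in ko and 13.5, 14.0, 11.6 and 8.99 CPM in wt libraries, which overlapped (log2 fold change -0.052, SE 0.15, adjusted p = 0.823). Abca1 was low, with 1.66, 1.53, 1.13 and 1.05 CPM in ko and 1.34, 1.18, 1.63 and 0.864 CPM in wt libraries (log2 fold change 0.24, SE 0.22, adjusted p = 0.428). The ligase Mylip was low as well, with 1.89, 2.51, 2.36 and 2.59 CPM in ko and 2.91, 1.82, 2.59 and 1.25 CPM in wt libraries (log2 fold change 0.26, SE 0.21, adjusted p = 0.348). For these 3 genes the ranges of both groups overlapped at 72 h.

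**Figure D3:**
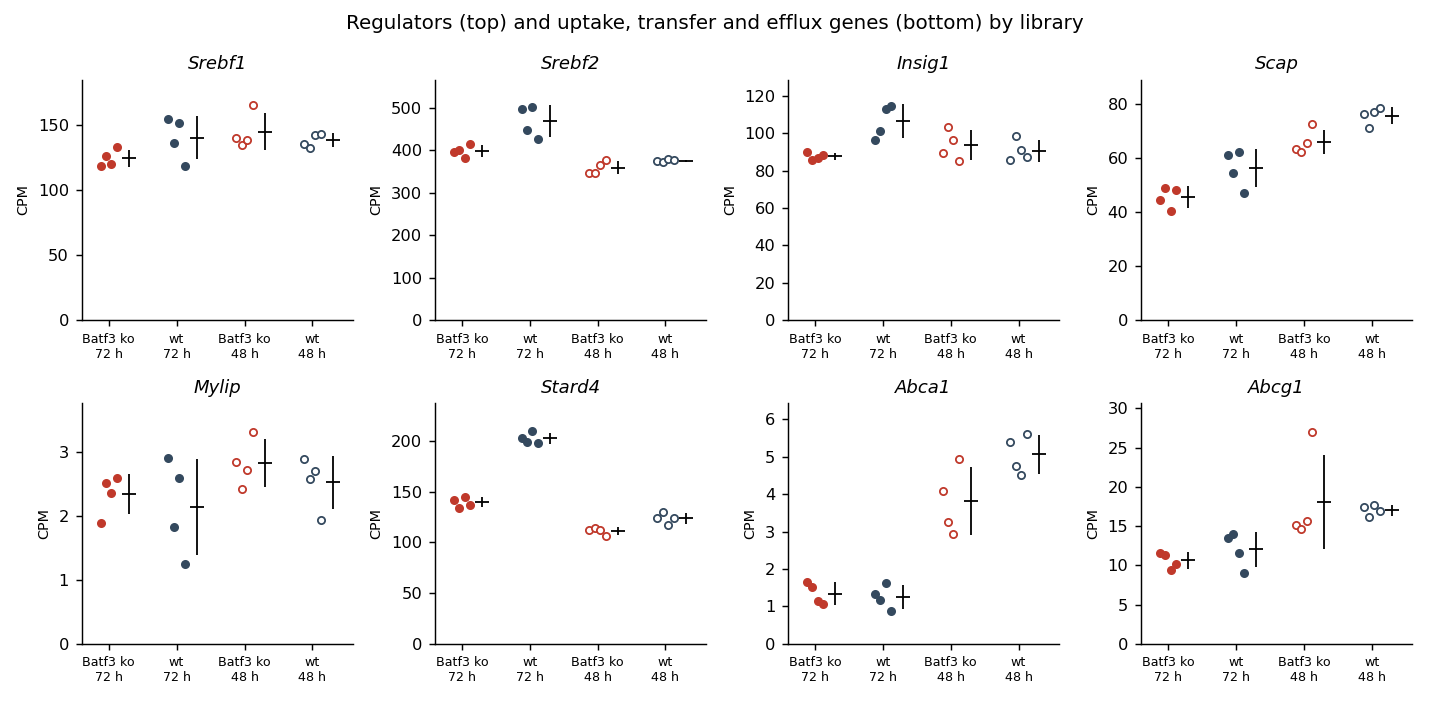
CPM of the 4 regulators (top) and the 4 uptake, transfer and efflux genes (bottom), 1 point per library, with mean and SD of each group of 4; vertical axes start at 0. Stard4 is the gene whose ko libraries at 72 h stand far below the wt libraries, and Abca1 is the gene with the largest drop between 48 h and 72 h in both genotypes.

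The 5 fatty acid enzymes all fell in ko libraries at 72 h, and all 5 calls held in each of the 26 alternatives tried. Acly (ENSMUSG00000020917, chromosome 11, 100476353 to 100528000), which makes cytosolic acetyl-CoA from citrate and so feeds both routes, had 194, 185, 182 and 220.4 CPM in ko libraries, against 313, 290.1, 337 and 297 CPM in wt libraries. The groups were well apart, the highest ko library being replicate 4 (log2 fold change -0.54, SE 0.064, adjusted p = 9.83e-07). Acaca (ENSMUSG00000020532, chromosome 11, 84129672 to 84401651), the carboxylase that makes malonyl-CoA and commits carbon to fatty acids, had 49.1, 47.7, 39.5 and 54.2 CPM in ko and 81.9, 76.5, 87.2 and 77.1 CPM in wt libraries. It showed the largest fall of the 31 genes (log2 fold change -0.63, SE 0.081, adjusted p = 2.46e-06), but not with the exon length offsets. There Acaca, with 17074 exon bases, was at -0.46, behind Acat2 at -0.57, Dhcr7 at -0.50 and Hmgcs1 at -0.47. Of the 50-base stretches of Acaca 30.4% also occur elsewhere in the transcriptome, chiefly in Gm5182. Fasn (ENSMUSG00000025153, chromosome 11, 120805846 to 120824547), the synthase that builds palmitate, had 83.1, 93.1, 76.1 and 114 CPM in ko and 140.3, 118, 159 and 125 CPM in wt libraries. Its groups came close, ko replicate 4 nearly meeting wt replicate 2, and its error was the largest of the 5 (log2 fold change -0.44, SE 0.13, adjusted p = 0.0103). With the exon length offsets Fasn was at -0.30 (adjusted p = 0.0413).

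The desaturases put a double bond into the finished chain. Scd2 (ENSMUSG00000025203, chromosome 19, 44293674 to 44306864) had 935, 944, 853 and 982 CPM in ko libraries at 72 h, against 1486, 1379.6, 1475 and 1285 CPM in wt libraries (log2 fold change -0.47, SE 0.063, adjusted p = 4.01e-06). Its paralog Scd1 (ENSMUSG00000037071, chromosome 19, 44394455 to 44407879) had 203, 209, 198 and 198 CPM in ko and 284, 253, 269 and 248 CPM in wt libraries (log2 fold change -0.26, SE 0.052, adjusted p = 0.000426). Neither gene's groups overlapped. The paralogs share few stretches, 4.56% of Scd1 and 3.97% of Scd2 occurring in other genes. Summed over the 5 enzymes the level was 1465 ± 90.5 CPM in ko and 2196 ± 143 CPM in wt libraries at 72 h (SD, n = 4 each), a ratio of 0.667, or 0.729 on TMM-scaled library sizes.

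**Figure D4:**
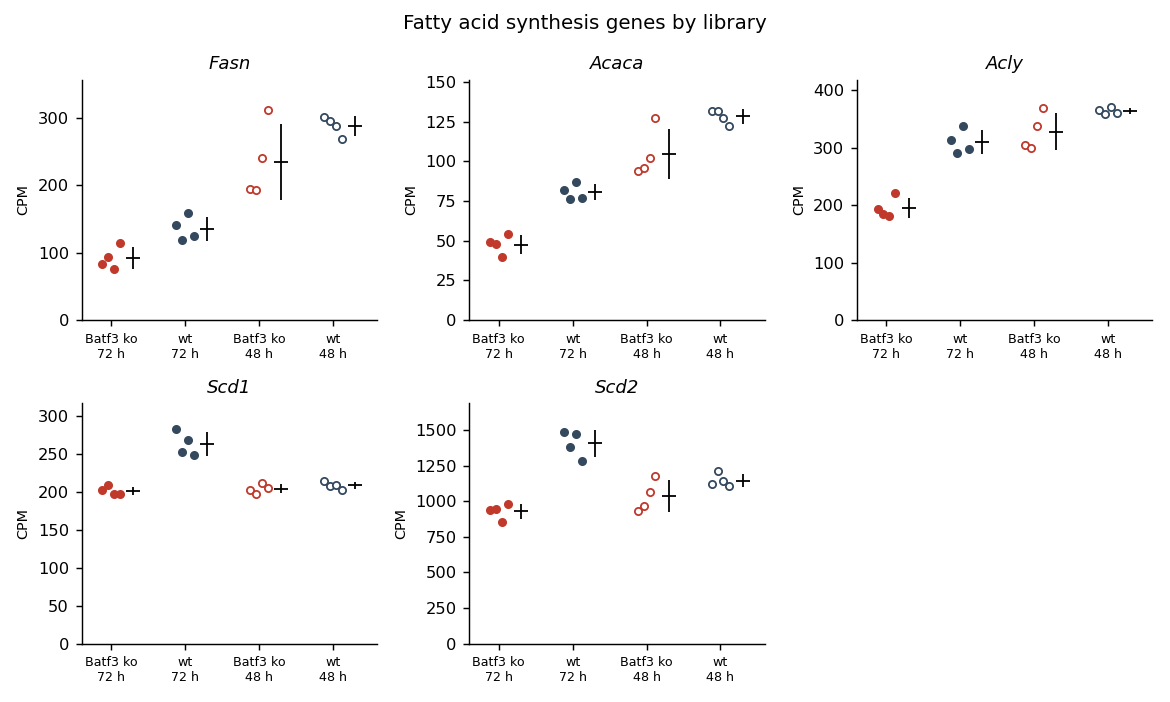
CPM of the 5 fatty acid synthesis genes, 1 point per library, with mean and SD of each group of 4; vertical axes start at 0. At 72 h every ko point is below every wt point in all 5 panels, on a scale where the median log2 fold change of all tested genes was -0.14. Fasn and Acaca are lower at 72 h than at 48 h in both genotypes, while wt Scd1 and Scd2 are higher at 72 h.

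Other genes of the same routes, from lists that hold none of the 31, moved both ways at 72 h. Of 19 tested genes in a wider sterol list, 5 were higher and 5 lower in ko libraries (26.3% each, where 16.9% of all tested genes were higher and 19.5% lower). Aacs, which activates acetoacetate for lipid synthesis, was lower (log2 fold change -0.62, adjusted p = 5.18e-06), Insig2, a relative of Insig1, was higher (log2 fold change 0.46, adjusted p = 0.00045), and Nr1h3, a sterol-sensing nuclear receptor, was higher at a level of 0.397 CPM in ko and 0.169 CPM in wt libraries (log2 fold change 1.37, adjusted p = 0.0254). Of 18 tested genes in a wider fatty acid list 2 were higher and 8 lower (11.1% and 44.4%). Acacb, the mitochondrial carboxylase, had the largest fall (log2 fold change -0.85, adjusted p = 0.00656) at 1.30 CPM in ko and 2.57 CPM in wt libraries. Hacd3, a dehydratase of chain elongation, fell by 0.56 on the log2 scale (adjusted p = 5.3e-07), and Mlxip, a glucose-sensing factor, by 0.44 (adjusted p = 0.000542). With the exon length offsets the counts were 5 higher and 5 lower in the sterol list and 2 higher and 9 lower in the fatty acid list, and without the 2 libraries that correlated least with their groups 5 higher and 7 lower, and 2 higher and 9 lower. Beside these, 12 of 16 S phase genes (75.0%), which carry out DNA replication, were lower and 0 higher in ko libraries at 72 h (0 higher in DESeq2 and limma-voom and at an unadjusted p below 0.05), and their sum was 2071 ± 64.4 CPM in ko and 2859 ± 99.9 CPM in wt libraries (SD, n = 4 each). The S phase count was 12 lower under both of those settings as well. The part of the S phase genes in the result was not tested.

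The 6 B cell markers summed to 304 to 334 CPM in ko and 223 to 293 CPM in wt libraries at 72 h, nearly all of it Ighm (315 CPM in ko and 255 CPM in wt libraries), and to 284 to 317 CPM in ko and 246 to 257 CPM in wt libraries at 48 h. Of the 2 B cell markers that could be tested, Ighm was higher in ko libraries at 72 h (log2 fold change 0.43, adjusted p = 1.69e-05) and at 48 h (0.28, adjusted p = 0.00858), and Cd79b did not pass at either time. The 8 myeloid markers summed to 8.18 to 11.995 CPM in ko and 5.86 to 7.22 CPM in wt libraries at 72 h, and to 1.02 to 2.34 CPM in ko and 1.30 to 1.99 CPM in wt libraries at 48 h. At 72 h this was mostly Cd68, which was higher in ko libraries (log2 fold change 0.70, adjusted p = 0.00319; at 48 h -0.12, adjusted p = 0.821), and Adgre1, S100a8 and S100a9 were at 0 in every library. The 5 dendritic cell markers summed to 4.01 to 5.47 CPM in ko and 5.13 to 5.99 CPM in wt libraries at 72 h, with Clec9a at 0 in every library, and the 4 erythroid markers to under 1 CPM in each library. The part of these cells in the differences was not tested.

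At 48 h 1 of these genes, the fatty acid enzyme Acaca, passed the test between the genotypes. Of the 31 genes 1 was lower and 0 were higher, where 7.07% of all tested genes were called, 2.66% lower and 4.41% higher. Unadjusted p-values below 0.05 were reached by 5 downward and 1 upward, and DESeq2 and limma-voom each called 1 lower and 0 higher. The median log2 fold change of the 31 was -0.0036, beside 0.011 for all tested genes. Acaca had 93.6, 95.7, 102 and 127 CPM in ko libraries at 48 h, against 132, 132, 127 and 122 CPM in wt libraries. Its ko replicate 4 lay within the wt range, and the log2 fold change was -0.26, SE 0.079, adjusted p = 0.0433. The call for Acaca was lost with the exon length offsets (adjusted p = 0.229), with the replicate number as a block (adjusted p = 0.0511) and in 10 of the 16 fits that left out 1 library (adjusted p from 0.0521 to 0.137 in those). Without ko 48 h replicate 4, 2 genes were lower and 1 higher. Without the 2 libraries that correlated least with their groups, 5 genes were lower and 1 higher.

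For several genes ko 48 h replicate 4 was the highest ko library. For Fasn the ko libraries had 194, 193, 240.1 and 312 CPM and the wt libraries 301, 295, 288 and 268 CPM (log2 fold change -0.26, SE 0.12, adjusted p = 0.216), and without ko 48 h replicate 4 the adjusted p was 0.0173. Cyp51 ran the other way, with 301, 283, 275 and 270.4 CPM in ko libraries and 250.3, 267, 246 and 244 CPM in wt libraries, every ko library above every wt library (log2 fold change 0.20, SE 0.069, adjusted p = 0.0726). Without ko 48 h replicate 4 the adjusted p of Cyp51 was 0.0228, and without wt 72 h replicate 4 it was 0.0342. Among the other fatty acid enzymes, Acly had 306, 299, 338 and 369 CPM in ko and 366, 358, 371 and 360.2 CPM in wt libraries (log2 fold change -0.12, SE 0.064, adjusted p = 0.293). Scd2 had 933, 965, 1066 and 1177 CPM in ko and 1118, 1208, 1139 and 1107 CPM in wt libraries (log2 fold change -0.11, SE 0.063, adjusted p = 0.308). Scd1 was at 203, 198, 212 and 206 CPM in ko and 215, 209, 209 and 203 CPM in wt libraries (log2 fold change 0.0046, SE 0.052, adjusted p = 0.974), which overlapped.

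At 48 h the regulators did not pass (0 lower and 0 higher in edgeR, DESeq2 and limma-voom, with an unadjusted p below 0.05 for 1). Srebf1 had 140.4, 135, 139 and 166 CPM in ko and 136, 133, 143 and 144 CPM in wt libraries (log2 fold change 0.098, adjusted p = 0.425). Srebf2 had 346, 348, 366 and 377 CPM in ko and 374, 372, 379 and 377 CPM in wt libraries (log2 fold change -0.03, adjusted p = 0.802). Insig1 had 89.4, 103, 96.2 and 85.1 CPM in ko and 85.7, 98.7, 90.9 and 87.2 CPM in wt libraries (log2 fold change 0.083, adjusted p = 0.556). For Scap 3 of the 4 ko libraries lay below all wt libraries. It had 63.4, 62.4, 65.6 and 72.6 CPM in ko and 76.3, 71.2, 77.0 and 78.8 CPM in wt libraries (log2 fold change -0.17, adjusted p = 0.169).

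Stard4 at 48 h had 112, 114, 112 and 106 CPM in ko libraries, against 124, 129.7, 117 and 124 CPM in wt libraries, apart by a small margin (log2 fold change -0.12, adjusted p = 0.217). Abca1 had 4.10, 3.26, 2.93 and 4.95 CPM in ko and 5.39, 4.76, 4.51 and 5.61 CPM in wt libraries (log2 fold change -0.38, adjusted p = 0.204), with its ko replicate 4 inside the wt range. Abcg1 had 15.1, 14.6, 15.6 and 26.9 CPM in ko and 17.5, 16.1, 17.7 and 16.9 CPM in wt libraries, and its ko replicate 4 stood far above all others (log2 fold change 0.11, adjusted p = 0.717). Mylip had 2.84, 2.42, 2.72 and 3.31 CPM in ko and 2.88, 2.58, 2.698 and 1.94 CPM in wt libraries (log2 fold change 0.20, adjusted p = 0.623). None of these 4 genes passed the test in edgeR, DESeq2 or limma-voom, and 2 had an unadjusted p below 0.05. Nor did any of the 18 sterol enzymes, of which 1 had an unadjusted p below 0.05. The summed level of the 18 sterol enzymes was 1416 ± 46.6 CPM in ko and 1417 ± 38.7 CPM in wt libraries at 48 h (SD, n = 4 each), and that of the 5 fatty acid enzymes 1907 ± 216 CPM in ko and 2132 ± 57.6 CPM in wt libraries. In the wider lists 1 sterol gene, Soat2, a cholesterol esterifying enzyme (log2 fold change 0.34, adjusted p = 0.032), and 1 fatty acid gene, Me1, the cytosolic malic enzyme (log2 fold change 1.05, adjusted p = 0.0223), were higher in ko libraries at 48 h, and 0 were lower (0 in DESeq2 and limma-voom, with unadjusted p below 0.05 for 3). That is 5.26% of the sterol and 5.56% of the fatty acid list, beside 4.41% of all tested genes. The sterol list had 0 higher with library totals as the scale, with the exon length offsets and without the 2 libraries that correlated least with their groups, and the fatty acid list had 0 higher in limma-voom.

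Whether the genotype difference itself changed between the times was tested as the interaction of genotype and time. For 9 of the 31 genes the ko-over-wt difference was lower at 72 h than at 48 h, and for 0 it was higher (0 in DESeq2 and limma-voom as well, with an unadjusted p below 0.05 for 1). Over all tested genes 5.61% had an interaction, negative for 3.53% and positive for 2.08%. The median interaction of the 31 was -0.21 on the log2 scale, beside -0.039 for all tested genes. The 9 were 5 sterol enzymes (Acat2, Hmgcs1, Fdps, Sqle and Dhcr7), the carrier Stard4, and 3 fatty acid enzymes (Acly, Scd1 and Scd2). Of these, the calls for Acat2 and Acly held in each of the 25 alternatives tried for them.

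Acat2 showed the largest such difference among the 9. At 48 h it had 83.5, 84.0, 92.4 and 86.0 CPM in ko and 86.2, 86.4, 89.2 and 89.2 CPM in wt libraries, which overlapped, and the interaction was -0.55, SE 0.084, adjusted p = 0.00039. Acly followed among the fatty acid enzymes, with an interaction of -0.42, SE 0.090, adjusted p = 0.00669, and Scd2 with -0.36, SE 0.088, adjusted p = 0.0176. Scd2 lost its call in 1 alternative, the fit without ko 72 h replicate 3 (adjusted p = 0.0802). For Scd1 the interaction was -0.26, SE 0.073, adjusted p = 0.0357, a call lost in 12 of the 16 fits that left out 1 library (adjusted p from 0.0502 to 0.137 in those), with median-ratio scaling, with no filter on low counts and with the exon length offsets (adjusted p from 0.0587 to 0.112). Acaca missed the threshold with an interaction of -0.37, SE 0.11, adjusted p = 0.0529. It passed in DESeq2 (adjusted p = 0.0357), with library totals as the scale (adjusted p = 0.0221), with no filter on low counts (adjusted p = 0.0134), at a minimum count of 50 (adjusted p = 0.0441), with the exon length offsets (adjusted p = 0.0328) and in 3 fits that left out 1 library, namely ko 48 h replicate 1, wt 72 h replicate 4 or ko 72 h replicate 4 in turn, with adjusted p from 0.0227 to 0.0467. Fasn had an interaction of -0.17, SE 0.18, adjusted p = 0.633.

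The other sterol genes in this group were nearer the threshold. Dhcr7 had 35.8, 43.7, 46.7 and 46.2 CPM in ko and 45.4, 51.5, 48.2 and 50.3 CPM in wt libraries at 48 h (interaction -0.44, SE 0.12, adjusted p = 0.0294). Hmgcs1 had 128, 145, 142 and 122 CPM in ko and 140.1, 166, 150.4 and 145 CPM in wt libraries at 48 h (interaction -0.40, SE 0.12, adjusted p = 0.0474). For both genes the 48 h groups overlapped. Sqle had 113, 118, 122 and 104 CPM in ko and 114, 123, 128 and 119 CPM in wt libraries at 48 h (interaction -0.32, SE 0.091, adjusted p = 0.0397). Fdps had 16.9, 19.0, 20.6 and 20.7 CPM in ko and 17.2, 19.2, 17.7 and 17.5 CPM in wt libraries at 48 h (interaction -0.36, SE 0.10, adjusted p = 0.038), and the Stard4 interaction was -0.30, SE 0.078, adjusted p = 0.0269. Leaving out 1 library ended the calls of Hmgcs1 (adjusted p up to 0.135), Fdps (up to 0.116) and Sqle (up to 0.121) in 11 of 16 fits each, and those of Dhcr7 (up to 0.081) and Stard4 (up to 0.0996) in 8 each. The exon length offsets also ended the calls of Hmgcs1, Fdps, Sqle and Stard4 (adjusted p from 0.0542 to 0.0803), no filter on low counts those of Fdps and Stard4 (adjusted p = 0.0817 and 0.0605), median-ratio scaling those of Hmgcs1 and Sqle (adjusted p = 0.0575 and 0.0549), and limma-voom that of Hmgcs1 (adjusted p = 0.0549). The number of the 31 genes called was 3 without wt 48 h replicate 1, ko 48 h replicate 2, ko 48 h replicate 3 or wt 72 h replicate 3, 4 without wt 48 h replicate 3, wt 48 h replicate 4, ko 72 h replicate 1 or ko 72 h replicate 2, and 2 without ko 72 h replicate 3. It was 5 with the exon length offsets, 11 without the 2 libraries that correlated least with their groups and 16 with library totals as the scale. Lss and Msmo1, lower at 72 h, had interactions of -0.35 (adjusted p = 0.082) and -0.27 (adjusted p = 0.106). Both passed with library totals as the scale (adjusted p = 0.037 for Lss and 0.0156 for Msmo1) and without the 2 libraries that correlated least with their groups (adjusted p = 0.0373 for Lss and 0.0477 for Msmo1). Lss also passed with no filter on low counts (adjusted p = 0.029) and in 2 fits that each lacked 1 library (adjusted p = 0.0289 lacking wt 72 h replicate 4, and 0.0464 lacking ko 72 h replicate 4), and Msmo1 without ko 48 h replicate 4 (adjusted p = 0.0374). At 48 h they had 51.7, 53.2, 55.7 and 71.8 CPM (Lss) and 90.1, 93.6, 82.0 and 80.2 CPM (Msmo1) in ko libraries, against 67.3, 60.6, 64.3 and 61.0 CPM (Lss) and 80.1, 90.4, 83.4 and 84.3 CPM (Msmo1) in wt libraries. Of the S phase genes 7 of 16 had a negative interaction (6 with the exon length offsets and 9 without the 2 libraries that correlated least with their groups), and their part was not tested.

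In wt cells most sterol enzymes rose between the times. Of the 31 genes 20 were higher and 7 lower at 72 h than at 48 h in wt libraries, where 63.6% of all tested genes were called, 33.6% higher and 29.9% lower. Of the 18 sterol enzymes 15 were higher and 1 lower, and the median log2 fold change of all 31 was 0.30, beside 0.054 for all tested genes. Mvd rose by 1.08 (SE 0.076) on the log2 scale, Fdft1 by 1.02 (SE 0.055), Hmgcs1 by 0.95 (SE 0.084), Msmo1 by 0.85 (SE 0.070) and Fdps by 0.84 (SE 0.073). Ctsb, on the opposite strand, covers 18.3% of the Fdft1 exon bases, and whether reads were counted by strand is not given in the sources used here. The counts of the 31 were 21 higher and 6 lower with the exon length offsets and 20 higher and 7 lower without the 2 libraries that correlated least with their groups. Idi1 fell, at -0.28 (adjusted p = 0.0213), a call lost without wt 48 h replicate 2 (adjusted p = 0.0583), wt 72 h replicate 1 (adjusted p = 0.0895) or wt 72 h replicate 2 (adjusted p = 0.0524) and with the exon length offsets (adjusted p = 0.263). Sqle and Ebp, an isomerase, did not pass, at 0.12 (adjusted p = 0.0976) and -0.17 (adjusted p = 0.0698). Ebp passed as lower in 8 alternatives, which were DESeq2 (adjusted p = 0.0408), median-ratio scaling (adjusted p = 0.0454), the fit to the groups compared alone (adjusted p = 0.0353) and 5 fits that left out 1 library (adjusted p from 0.0399 to 0.0486). Sqle passed as higher with library totals as the scale (adjusted p = 0.0355) and with the exon length offsets (adjusted p = 0.0175).

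In ko cells 9 of the 18 sterol enzymes rose between the times. Of the 31 genes 11 were higher and 9 lower at 72 h than at 48 h in ko libraries, where 68% of all tested genes were called, 34.4% higher and 33.6% lower. The sterol enzymes that fell were Acat2, Idi1 and Sqle, and the median of all 31 was 0.047, beside 0.029 for all tested genes. With the exon length offsets 15 of the 31 were higher and 7 lower, and of the sterol enzymes 12 were higher and 1 lower. Without the 2 libraries that correlated least with their groups 12 of the 31 were higher and 9 lower. Fdft1 rose by 0.93 (SE 0.055) on the log2 scale, Nsdhl by 0.81 (SE 0.075), Mvd by 0.78 (SE 0.076), Msmo1 by 0.58 (SE 0.070) and Hmgcs1 by 0.55 (SE 0.084). Acat2 was at -0.36 (adjusted p = 8.24e-06) in ko and 0.19 (adjusted p = 0.00839) in wt libraries, the wt call being lost with no filter on low counts (adjusted p = 0.112). Idi1 and Sqle fell as well, at -0.38 and -0.19, calls lost with the exon length offsets (adjusted p = 0.0722 for Idi1 and 0.235 for Sqle). A gene past the threshold in 1 genotype and not in the other is not shown to differ between them, and the 9 interactions above are the tests of that difference.

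Of the regulators, Srebf2 rose and Scap fell between the times in both genotypes. Srebf2 rose by 0.22 (SE 0.052) in ko and 0.29 (SE 0.052) in wt libraries on the log2 scale, and Scap was at -0.47 in ko and -0.46 in wt libraries. Insig1 had -0.03 (adjusted p = 0.733) in ko and 0.21 (adjusted p = 0.0163) in wt libraries. The Insig1 call was lost without wt 48 h replicate 1 (adjusted p = 0.0637), wt 48 h replicate 4 (adjusted p = 0.051) or wt 72 h replicate 4 (adjusted p = 0.0727). It was also lost with no filter on low counts (adjusted p = 0.0583). For Srebf1 the values were -0.15 (adjusted p = 0.0512) in ko and -0.011 (adjusted p = 0.898) in wt libraries. In ko it passed as lower in 10 alternatives: DESeq2 (adjusted p = 0.04), median-ratio scaling (adjusted p = 0.0421), library totals as the scale (adjusted p = 0.0141), no filter on low counts (adjusted p = 0.0169), the groups compared alone (adjusted p = 0.0422) and 5 fits that left out 1 library (adjusted p from 0.0258 to 0.046). Stard4 rose by 0.39 (SE 0.056) in ko and 0.69 (SE 0.056) in wt libraries. The exporters fell. Abca1 showed the largest change over time of the 31 genes, at -1.42 in ko and -2.05 in wt libraries, and Abcg1 was at -0.69 in ko and -0.53 in wt libraries. Mylip, with -0.20 in ko and -0.27 in wt libraries, did not pass in either genotype.

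The fatty acid enzymes split into 2 patterns over time. Fasn, Acaca and Acly fell in both genotypes. Fasn was at -1.29 (SE 0.13) in ko and -1.11 (SE 0.13) in wt libraries on the log2 scale, Acaca at -1.07 (SE 0.081) in ko and -0.70 (SE 0.080) in wt libraries, and Acly at -0.68 (SE 0.064) in ko and -0.26 (SE 0.064) in wt libraries. The desaturases did not fall past the threshold in either genotype. In wt libraries Scd1 rose by 0.31 (SE 0.052) and Scd2 by 0.27 (SE 0.063), while in ko libraries Scd1 was at 0.047 (adjusted p = 0.428) and Scd2 at -0.089 (adjusted p = 0.211). In ko, Scd1 passed as higher with the exon length offsets (log2 fold change 0.17, adjusted p = 0.00314), and Scd2 as lower with library totals as the scale (log2 fold change -0.16, adjusted p = 0.0458). S phase genes fell over the same interval, 16 of 16 in ko and 15 of 16 in wt libraries (16 and 12 with the exon length offsets, 16 in both without the 2 libraries that correlated least with their groups), and their part in these changes was not tested.

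**Figure D5:**
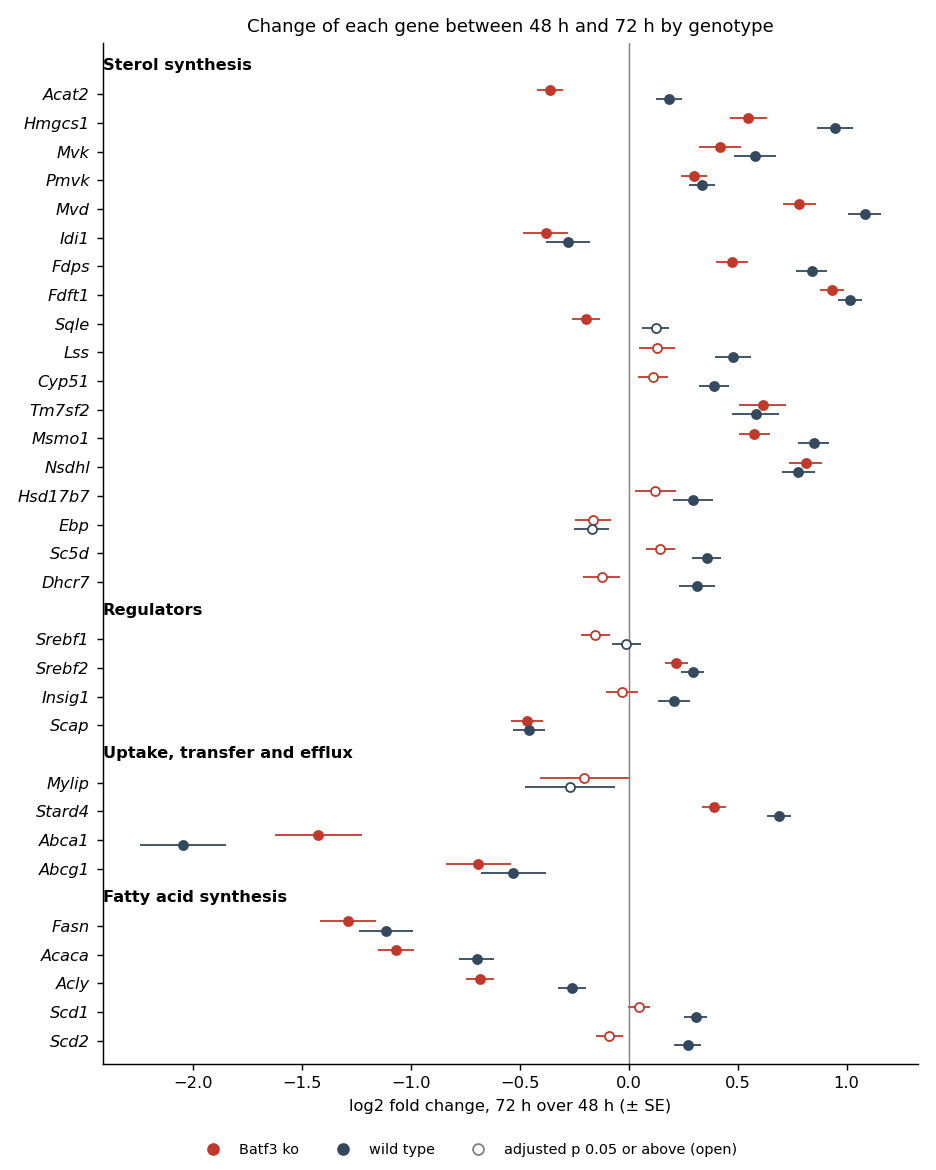
Log2 fold change of 72 h over 48 h (horizontal axis, with SE bars) for each of the 31 genes in Batf3 ko and in wild-type libraries, grouped by role; filled points passed an adjusted p of 0.05. Most sterol enzymes lie right of 0 in wild type, with the ko point further left for 15 of the 18. For Acat2, Hmgcs1, Fdps, Sqle and Dhcr7 that difference passed the interaction test. Fasn, Acaca and Acly lie left of 0 in both genotypes.

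Per length of exon, the desaturase Scd2 was the most abundant of the 31 in every group. Its level was 318 ± 20.95 TPM (counts per exon length, scaled to the same sum in each library) in ko and 515 ± 53.8 TPM in wt libraries at 72 h, and 380.5 ± 52.4 TPM in ko and 436 ± 15.1 TPM in wt libraries at 48 h (SD, n = 4 each). Cyp51 was the highest sterol enzyme at 72 h, with 123 ± 5.64 TPM in ko and 152 ± 9.99 TPM in wt libraries, and Idi1 the highest at 48 h, with 148 ± 14.2 TPM in ko and 154 ± 7.21 TPM in wt libraries. The activator Srebf2, at 104 ± 4.08 TPM in ko and 131 ± 15.2 TPM in wt libraries at 72 h, stood above Srebf1, at 41.3 ± 2.24 TPM in ko and 50.0 ± 7.67 TPM in wt libraries. Lss, Fdps, Hsd17b7 and Tm7sf2 were the 4 enzymes of lowest level in wt libraries at 48 h. Their values ran from 4.95 ± 0.733 TPM for Tm7sf2 to 12.2 ± 0.589 TPM for Lss. The length used is that of all annotated exons of a gene merged, 10787 bases for Lss. It can exceed the length of 1 transcript, which lowers TPM and limits such rankings between genes. Abca1 was the least abundant of all 31, at 0.243 ± 0.0557 TPM in ko and 0.243 ± 0.0692 TPM in wt libraries at 72 h.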

How the data were processed

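Poly-A RNA was sequenced in 16 libraries, with stranded libraries made from 100 ng of RNA, per the labels' protocols. The submitters' processing notes name STAR 2.7, bcl2fastq 2.2.0, featureCounts and the build GRCm38. The sources used here give neither the annotation release nor the strand setting, nor how reads with several matches were handled. The authors deposited raw counts, 1 whole number per gene and library, for 55335 identifiers. Of these, 55154 were found in GENCODE M21, which gave symbols, positions and exon lengths.

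CPM was computed from column sums and TPM with exon lengths. The two-sided, robust quasi-likelihood F test of edgeR 4.0.16 (R 4.3.3) was run on counts scaled by TMM and filtered by filterByExpr at a minimum count of 10, over 15197 genes and all 16 libraries in the 4 labelled groups, with a threshold of 0.05 on Benjamini-Hochberg adjusted p. SE is the size of the log2 fold change over the square root of F. The median biological coefficient of variation was 9.68%. Library totals, from 29375818 to 39241169 counts, limit the precision of the genes of lowest count, Abca1 and Mylip. No 2 libraries of a group agreed within sampling noise. The fit was tested on simulated data.

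The genes, lists and tests were chosen with earlier results of these data known. Every 1 of the 31 genes may be named. Values in every library were given for sterol enzymes past the threshold in a genotype comparison or the interaction. They were also given for all genes of the other 3 roles, and at 48 h for Cyp51, which passed between genotypes only in alternatives. Of other genes, the 3 per list with the largest change past the threshold were named. The alternatives used other scaling (library size or median ratio), other tools (limma 3.58.1 with voom, DESeq2 1.42.0), no filter or a minimum count of 50, a block for the replicate number, a fit to the compared groups alone, offsets for exon length, and fits without each library in turn or without both libraries that stand apart. Promoter windows are from RefSeq. Protein sequences were not used here.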

Additional observations from a re-analysis of the deposited data

Results flagged for a closer look

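In 7 of 144 groups of 4 libraries looked at (the 31 genes and 5 sums in 4 groups each), 1 library stood far from the other 3. Chance alone flags about 1 in 20 such groups. Acat2 was high in wt 72 h replicate 3, at 114.1 CPM against 96.1 to 98.4 CPM in the others. Pmvk was low in wt 48 h replicate 3, at 58.8 CPM against 61.6 to 62.1 CPM, and Mvd was low in wt 48 h replicate 2, at 35.2 CPM against 37.9 to 38.1 CPM. Srebf1 was high in ko 48 h replicate 4, at 166 CPM against 135 to 140.4 CPM, and so was Abcg1, at 26.9 CPM against 14.6 to 15.6 CPM. The summed sterol enzymes were high in wt 48 h replicate 2, at 1474 CPM against 1391 to 1405 CPM, and the summed uptake, transfer and efflux genes in ko 48 h replicate 4, at 141 CPM against 133.5 to 134.3 CPM. Of these 7 flags 3 fell on ko 48 h replicate 4, which also correlated least with its group. The sum flagged in that library contains Abcg1, so its flag is not independent of that of Abcg1.

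The difference between ko and wt libraries was not the same at 72 h and 48 h for 9 genes, by the interaction test of edgeR adjusted over all 15197 genes. Of these calls, only those for Acat2 and Acly held in each alternative tried. On the log2 scale the difference at 72 h minus that at 48 h was -0.55 for Acat2, -0.44 for Dhcr7, -0.42 for Acly, -0.40 for Hmgcs1, -0.36 for Fdps, -0.36 for Scd2, -0.32 for Sqle, -0.30 for Stard4 and -0.26 for Scd1.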

How the results depend on the processing

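No genotype, time or interaction call of the 31 genes changed sign in any alternative. The calls held in all alternatives for 11 of 13 genes at 72 h, 0 of 1 at 48 h, 2 of 9 interactions, 24 of 27 changes over time in wt and 18 of 20 in ko. Library-size scaling gave 1464 higher and 4779 lower genes at 72 h (23.5% of calls higher), where TMM gave 2565 and 2961 (46.4% higher), and 22 of the 31 lower; in the interaction it gave 183 positive and 1231 negative genes (12.9% of calls positive), where TMM gave 316 and 537 (37.0% positive), and 16 of the 31 negative. At 48 h the share of calls that were higher was 62.3%, against 48.3% with library-size scaling, 54.1% with median-ratio scaling and 50.6% with DESeq2, which called 819 genes lower where edgeR called 405; DESeq2 also gave 563 positive interactions. Of the 31, the genes lower at 48 h numbered 2 with no filter on low counts, 0 with the exon length offsets and 5 without the libraries that stand apart, where 1 was higher and 1379 of all tested genes were higher and 1173 lower, beside 670 and 405 with all libraries. Exon length offsets left 5 of the 31 with a negative interaction. Leaving out 1 library gave 302 to 1059 genes higher and 171 to 896 lower at 48 h, with 0 to 1 of the 31 higher and 0 to 2 lower; for the interaction it gave 158 to 407 positive and 233 to 649 negative genes, with 2 to 10 of the 31 negative. On TMM-scaled library sizes 22 of 144 group means moved by over 1 SD. The cause of these shifts was not tested.

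Same-numbered libraries were not shown to be pairs: the correlation of their deviations ran from -0.26 to 0.28. With the replicate number as a block, 0 of the 31 were lower at 48 h (Acaca adjusted p = 0.0511), and the interaction of Hmgcs1 had an adjusted p of 0.0637. Abca1 and Mylip, the genes of lowest count, have the widest errors.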
